A study of Mus musculus with 15 samples.

Results

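The earliest step of the OCT4 degron time course was examined, in which O4AID ESCs (mouse embryonic stem cells) held for 1.5 h in indole-3-acetic acid (IAA, 500 µM) were set against the same line at 0 h. It holds 2 of the 15 libraries of the series, 1 on each side, chosen by their labels. Of 48709 genes counted, 17477 held a mean of at least 10 counts over both libraries and were compared. O4AID cells, of strain 129SV, are Oct4-/- and carry 3 transgenes, TetOFF Oct4, CAG Oct4AID and CAG Tir1. Every O4AID library, that at 0 h included, came from cells in N2B27 with 1 µM PD03, 3 µM Chiron and LIF, and in 1 µg/ml doxycycline, which keeps the wild-type *Oct4* transgene silent. The degron fusion and the plant F-box protein TIR1 are transgenes driven by the constitutive CAG promoter. The other line of the series, CreER (mixed 129SV C57BL/6, Oct4Fl/-; CAG CreER), received 500 nM 4OHT and no IAA, with 2 replicates at each of 0, 12, 18, 24 and 36 h. It was grown in the same medium and inhibitors without doxycycline, and serves here for the spread between replicates and for a side-by-side reading of the called genes at 36 h.

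OCT4, the product of *Pou5f1*, is a POU-family transcription factor that binds an octamer element, often together with SOX2, and holds mouse ESCs in the pluripotent state. In the degron system, auxin brings the AID-tagged protein to TIR1, which leads to its ubiquitination and destruction by the proteasome, so the protein is lost while its mRNA is not itself the target. IAA is an indole, and several indoles are ligands of the aryl hydrocarbon receptor (AhR), a transcription factor that induces cytochrome P450 genes such as *Cyp1a1*. At so short a time, mRNAs with a short half-life are the ones whose level can follow a change in transcription.

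The 0 h library held 48.7 M (mega) counted reads and the 1.5 h library 45.4 M. Levels are CPM, read counts scaled to a library of 1 M reads with trimmed-mean (TMM) factors, and each change is the log2 ratio of (CPM + 1) at 1.5 h over 0 h, which understates the change of genes near or below 1 CPM. With 1 library a side no test across replicates was possible. A gene was called higher or lower (said to rise or fall) if it changed at least 1.5-fold on that scale and the 95% counting interval of its ratio did not include 0. The intervals, given in brackets, cover counting error only.

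*Pou5f1* mRNA was not lost. Its level was 717 CPM at 0 h and 816 CPM at 1.5 h, a log2 change of 0.19 [0.16, 0.21], and 684, 670 and 601 CPM at 6, 10 and 24 h. The reads do not separate the degron transgene from other *Pou5f1* transcripts, and loss of the protein leaves no direct mark in them, so *Pou5f1* does not serve as a check of the label here. ESC markers were abundant on both sides, with *Nanog* at 1304 and 1215 CPM and *Dppa5a* at 1259 and 1217 CPM. Markers of other cell types were scarce. Of 8 fibroblast markers, the 4 compared summed to 42.3 and 42.6 CPM. Over all 8, 3 held 0 reads at 0 h and 4 at 1.5 h. Of 6 mesoderm markers, the 4 compared summed to 5.59 and 5.53 CPM. Of 8 neural markers, the 7 compared summed to 67.9 and 64.1 CPM, and none of the 8 was at 0 reads. In bulk RNA, fewer cells of a kind cannot be told apart from less RNA per cell.

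Few genes had moved at 1.5 h. Of the 17477 genes compared, 40 were called higher (0.229%) and 78 lower (0.446%), and the median change was -0.01. Scaling by total counts gave 48 higher and 57 lower, which moved the share of calls that were higher from 33.9% to 45.7%. Among the 14130 protein-coding genes, 37 were called higher (0.262%) and 19 lower (0.134%), so protein-coding calls leaned upward while calls in other classes, 3 higher and 59 lower, leaned downward. By counting error alone, with no fold limit, 2729 genes lay above 0 (15.6%) and 3301 below (18.9%). Counting intervals are narrower for abundant genes. Their median half-width was 0.155 over all genes and 0.0446 above a mean of 100 CPM, where the median change was -0.04. The shares over all genes are therefore not matched to the read depth of the gene lists below. The 2 replicates of a CreER group, which received the same treatment, gave between 22 and 73 calls by the same rule (0.123% to 0.415% of genes), against 118 calls in O4AID (0.675%). At a mean of at least 50 counts these were 10 to 31 calls in 4 of the CreER pairs, 41 in the pair at 0 h, and 103 in O4AID. CreER replicates are another line at about 21.7 to 30.8 M reads, so they give a scale and not the replicate error of O4AID. Only 56 of the 118 O4AID calls were in protein-coding genes. The CreER calls were not split by class, so which classes carry the difference is not known.

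**Figure D1:**
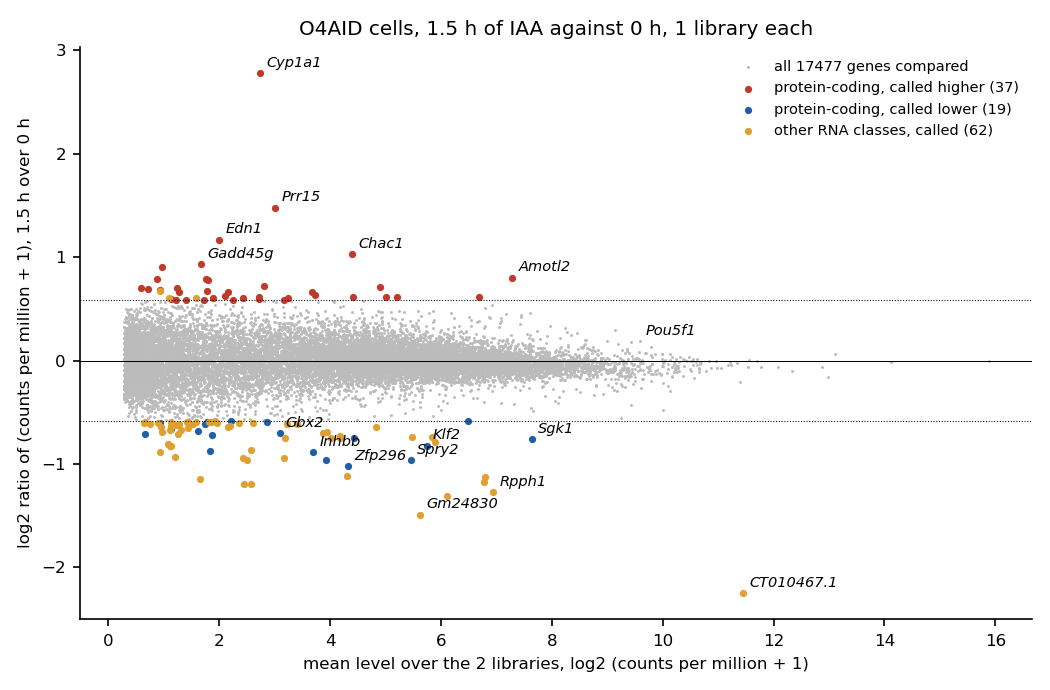
Log2 ratio of (CPM + 1), 1.5 h over 0 h, against the mean level of each of the 17477 genes compared, with 1 library a side. Dotted lines mark 1.5-fold, and the 37 protein-coding genes called higher (red), 19 called lower (blue) and 62 called genes of other classes (orange) stand outside a cloud centred at -0.01, with *Cyp1a1* at 2.78.

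Among protein-coding genes the largest fall was in *Zfp296*, a zinc finger gene known for its enrichment in pluripotent cells. Its promoter is shown because it was the only promoter of a called-lower protein-coding gene in which the octamer was found. The 250 bases before the RefSeq start sites (GRCm38.p6) of 3 genes that hold an octamer are given below, the others being *Gadd45g*, which rose, and *Zfp42*, a pluripotency marker. Sequences are written 5′ to 3′ on the strand of the gene, at chr7:19577037-19577286 (+ strand), chr13:51846425-51846674 (+ strand) and chr8:43307010-43307259 (- strand), and capitals mark the octamer, which in all 3 reads in reverse as ATTTGCAT.
Zfp296: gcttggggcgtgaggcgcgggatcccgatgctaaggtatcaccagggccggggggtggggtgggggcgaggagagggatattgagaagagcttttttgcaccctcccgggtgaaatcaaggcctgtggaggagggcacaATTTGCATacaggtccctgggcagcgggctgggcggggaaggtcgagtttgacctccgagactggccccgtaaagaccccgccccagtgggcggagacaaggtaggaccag
Gadd45g: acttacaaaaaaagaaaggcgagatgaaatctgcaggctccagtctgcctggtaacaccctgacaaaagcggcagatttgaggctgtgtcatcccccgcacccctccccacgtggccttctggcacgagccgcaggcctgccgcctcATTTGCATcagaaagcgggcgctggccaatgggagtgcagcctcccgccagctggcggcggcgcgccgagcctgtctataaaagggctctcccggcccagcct
Zfp42: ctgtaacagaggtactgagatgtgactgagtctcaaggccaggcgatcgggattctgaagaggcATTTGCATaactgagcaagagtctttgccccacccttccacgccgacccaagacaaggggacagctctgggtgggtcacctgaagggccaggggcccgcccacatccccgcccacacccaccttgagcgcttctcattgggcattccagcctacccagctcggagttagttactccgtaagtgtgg
The match ends 104 bases before the start site in *Zfp296*, 96 before it in *Gadd45g* and 179 before it in *Zfp42*. Over windows from 250 bases before to 50 after the start, ATGCAAAT was found on either strand in 1 of 21 promoters of called-lower protein-coding genes, in 2 of 35 of called-higher genes (*Gadd45g* and *Mab21l3*), and in 1.28% of the 14096 promoters of all protein-coding genes compared. These are matches of letters only, and RefSeq gave a promoter for 15 of the 19 called-lower genes and 31 of the 37 called-higher genes.

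Several transcription factor genes fell. *Zfp296* stood at 25.8 CPM at 0 h (1210 reads) and 12.2 CPM at 1.5 h (545 reads), then at 5.93, 5.64 and 5.52 CPM at 6, 10 and 24 h. Its change was -1.02 [-1.16, -0.89], a level 52.8% lower, and 0 h was the highest of the 5 libraries. *Klf2*, a Krüppel-like transcription factor of the naive pluripotency network, went from 67.5 to 37.7 CPM (-0.82 [-0.91, -0.74]) and stayed between 26.6 and 30.5 CPM at the later times. *Foxd3*, a forkhead factor of ESCs and neural crest, went from 7.81 to 4.84 CPM (-0.59 [-0.80, -0.39]). *Gbx2*, a homeobox gene known as a STAT3 target in ESCs, went from 9.56 to 5.49 CPM (-0.70 [-0.90, -0.51]). *Myb*, the proto-oncogene transcription factor, was low throughout and went from 3.07 to 1.66 CPM (-0.62 [-0.88, -0.34]), with 0.387 to 0.519 CPM afterwards. All of these transcription factor genes were lower still, at each later time, than at 1.5 h. The homeobox gene *Nkx1-2* fell from 4.55 to 2.69 CPM (-0.59) and reached 0.0622 CPM at 24 h.

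Signalling genes fell as well. *Spry2*, a feedback inhibitor of receptor tyrosine kinase signalling to ERK, went from 57.1 to 28.7 CPM (2673 and 1283 reads, -0.97 [-1.06, -0.87]) and then to 16.8, 13.7 and 10.2 CPM. *Inhbb*, which encodes the βB subunit of activin and inhibin, went from 15.9 to 8.13 CPM (-0.89 [-1.05, -0.72]) and reached 1.58 CPM at 24 h. *Sgk1*, a serum- and glucocorticoid-induced kinase, went from 249 to 147 CPM (-0.76 [-0.80, -0.72]) and stood at 125, 148 and 86.6 CPM later. *Fzd5*, a Wnt receptor, passed the 1.5-fold limit narrowly, from 107 to 71.1 CPM (-0.59), and stood at 30.2 CPM at 24 h. *Ffar3*, a receptor for short-chain fatty acids, went from 19.1 to 9.34 CPM (-0.96 [-1.11, -0.81]), and the cytokine gene *Il10* from 3.63 to 1.52 CPM (-0.88 [-1.14, -0.60]). Both were nearly silent in the CreER line at 0 h, with *Ffar3* at 0.160 and 0.272 CPM and *Il10* at 0 CPM in both replicates.

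The remaining named falls did not all persist. *Acat3*, an acetyl-CoA acetyltransferase gene, went from 26.0 to 15.1 CPM (-0.75) and then held between 14.4 and 15.8 CPM. *Lrrc61* went from 3.56 to 1.77 CPM (-0.72) and was back at 4.21 CPM at 24 h, and the tight junction gene *Cldn7* went from 3.14 to 1.75 CPM (-0.59) and was at 3.71 CPM at 24 h. The glypican gene *Gpc2*, from 1.69 to 0.694 CPM (-0.67), rested on 79 and 31 reads and was at 1.45 CPM at 24 h. *Serpina3i*, from 2.80 to 1.37 CPM (-0.68), belongs to a cluster of near-identical serpin genes between which reads may be split, so its value is uncertain. *Rslcan18* (45 and 9 reads) and *Gm5096* (61 and 23 reads), also called lower, held too few reads for a named change. Of the 19 protein-coding genes called lower, 11 were lowest in the 24 h library and 5 in the 1.5 h library. Just inside the limit among the named genes were *Fzd5* and *Nkx1-2*, and just outside it was *Dusp6* (-0.58).

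The largest rise was in *Cyp1a1*, the cytochrome P450 gene used as the standard readout of AhR activity. It held 33 reads at 0 h and 479 at 1.5 h, 0.704 and 10.7 CPM, a log2 change of 2.78 [2.53, 3.00] and a ratio of 15.2 before the added 1 CPM. Its level went on to 74.1, 170 and 277 CPM at 6, 10 and 24 h. The other targets moved less. *Ahrr*, the AhR repressor, went from 2.69 to 4.01 CPM (0.44 [0.19, 0.69]) and *Tiparp*, an ADP-ribosyltransferase that limits AhR, from 41.7 to 52.4 CPM (0.32 [0.24, 0.41]). *Cyp1b1* held 23 and 41 reads, a change of 0.36 [0.07, 0.65]. *Nqo1* stood at 113 and 117 CPM and *Aldh3a1* at 1.84 and 1.79 CPM, with intervals that include 0. At 24 h *Ahrr* was at 35.4, *Cyp1b1* at 99.8 and *Nqo1* at 310 CPM. Of the 6 targets compared, 1 was thus called higher (0.229% over all genes) and 4 had an interval above 0 (15.6% over all genes), with a median of 0.34. *Ahr* itself went from 10.5 to 14.8 CPM (0.46 [0.31, 0.62]), while its partner *Arnt* went from 93.9 to 80.8 CPM (-0.21 [-0.28, -0.15]). The AhR-binding letters TNGCGTG occurred on either strand in 1 of 5 target promoters (*Ahrr*) and in 7.56% of all 14096, and were not in the *Cyp1a1* window. These windows reach only from 250 bases before to 50 after the start. Sites farther away were not searched, so absence from a window does not show that a gene lacks them. No library of cells without the degron under IAA was analysed here, so IAA itself and loss of OCT4 cannot be told apart.

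Stress-response and growth-arrest genes were among the other rises. *Chac1*, a glutathione-degrading enzyme induced by ATF4, went from 12.8 to 27.2 CPM (599 and 1214 reads, 1.03 [0.90, 1.16]) and was back at 12.0 CPM at 24 h. *Gadd45g*, a growth-arrest and DNA-damage-inducible gene, went from 1.20 to 3.20 CPM (0.94 [0.66, 1.20]) and on to 10.8 CPM at 24 h. *Plk3*, a stress-responsive polo-like kinase, went from 21.8 to 36.3 CPM (0.71 [0.60, 0.82]) and peaked at 63.5 CPM at 10 h. Also called higher were *Gadd45b* (28.2 to 43.8 CPM, 0.62), *Ppp1r15a*, which directs dephosphorylation of eIF2α (24.3 to 37.8 CPM, 0.61), and *Atf3* (6.47 to 10.4 CPM, 0.61). For *Ppp1r15a* and *Gadd45b* the 1.5 h library was the highest of the 5.

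Other rises were in signalling and developmental genes. *Prr15* went from 3.24 to 10.8 CPM (152 and 484 reads, 1.48 [1.27, 1.69]) and peaked at 16.1 CPM at 6 h. *Edn1*, which encodes the vasoactive peptide endothelin-1, went from 1.47 to 4.57 CPM (1.17 [0.91, 1.42]), then to 2.93, 1.27 and 0.498 CPM, so it was above its 0 h level at 1.5 and 6 h and below it later. *Amotl2*, an angiomotin that binds YAP in the Hippo pathway, went from 113 to 198 CPM (0.80 [0.75, 0.85]) and returned to 122 CPM. *Msx2*, a homeobox gene of BMP signalling, went from 1.58 to 3.43 CPM (0.78 [0.51, 1.04]) and on to 5.33 CPM. The deubiquitinase gene *Otud1* went from 8.86 to 14.6 CPM (0.67) and the bHLH repressor gene *Msc* from 2.48 to 4.52 CPM (0.67). The remaining named rises, *Gm527*, *3110001I22Rik*, *Il20rb*, *Traf5* and *Defb42*, ranged from 0.66 to 0.79. *Zfp703* (153 and 246 reads), *Timp3* (40 and 80) and *Tmprss2* (12 and 46), also called higher, were picked after their values were seen. They continued to 30.1, 12.2 and 32.5 CPM at 24 h, from 3.27, 0.854 and 0.256 CPM at 0 h. *Tmprss2* held too few reads for a named change. Not every called rise on few reads continued, as *Trim61* (52 and 97 reads) went from 1.11 to 2.17 CPM and was at 0.436 CPM at 24 h. Of the 37 protein-coding genes called higher, 17 were highest in the 1.5 h library and 12 in the 24 h library.

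**Figure D2:**
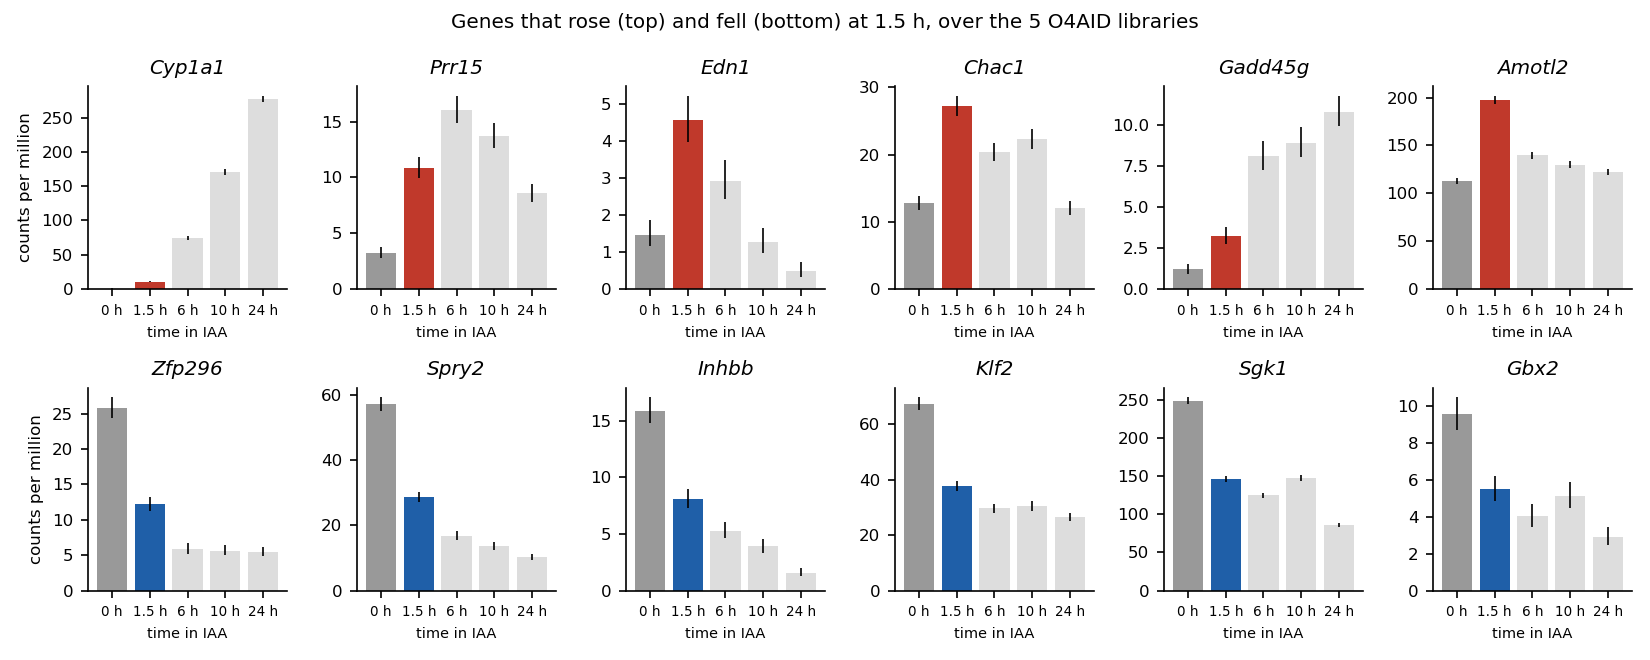
CPM of 6 genes that rose (top) and 6 that fell (bottom) at 1.5 h, in each of the 5 O4AID libraries, with 95% Wilson counting intervals as error bars and 1 library a bar. *Cyp1a1* climbs to 277 CPM at 24 h and *Edn1* peaks at 4.57 CPM at 1.5 h, whereas each of the 6 falling genes is highest at 0 h.

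Members of the pluripotency network were lower by small amounts. In the list of 9 pluripotency factors that the study followed, none passed 1.5-fold, but the interval lay below 0 in 9 of 9 (18.9% over all genes), with a median of -0.32. Their median interval half-width was 0.037, against 0.155 over all genes, so small changes excluded 0 more readily in this list. How the study chose these genes and the trophectoderm genes below is not given in the sources used here, so neither list's direction is taken as independent evidence. Neither list is complete, as the study also had PCR probes for *Lifr* and *Elf5*, which are held in other lists here. *Tbx3*, a T-box factor, went from 182 to 136 CPM (-0.42 [-0.47, -0.37]), and *Sox2*, the partner of OCT4 at composite elements, from 315 to 237 CPM (-0.41 [-0.45, -0.38]). *Klf4* went from 153 to 115 CPM (-0.41) and *Sall4* from 301 to 229 CPM (-0.39). *Prdm14* (-0.32) and *Nr0b1* (-0.30) were intermediate, and *Tfcp2l1* (-0.17), *Nanog* (-0.10) and *Zfp42* (-0.08) were the nearest to 0. The order of the later levels was not that of the 1.5 h changes. *Zfp42* stood at 383, 363, 149, 155 and 72.0 CPM over the 5 times and *Nr0b1* at 52.5, 42.6, 17.2, 12.6 and 4.94 CPM.

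Of 22 further pluripotency genes, 1 was called lower (*Klf2*, 0.446% over all genes). An interval lay below 0 in 13 and above it in 2 (18.9% and 15.6% over all genes), with a median of -0.09. The growth factor gene *Fgf4* (-0.46 [-0.50, -0.42]), *Klf5* (-0.39), the methylcytosine dioxygenase gene *Tet1* (-0.32) and the nuclear receptor gene *Esrrb* (-0.22 [-0.25, -0.20]) were lower, whereas *Utf1* stood at 4.80 and 4.90 CPM. No trophectoderm or other trophoblast gene was called. Of 5 followed by the study, 4 were compared (*Gcm1* was under the limit of counts), and no interval excluded 0. *Cdx2*, the trophectoderm master regulator, held 42 and 52 reads (0.19 [-0.11, 0.48]), so a change of that size was not detectable at this depth. Of 11 other trophoblast genes, 2 had an interval above 0 and none below (15.6% and 18.9% over all genes). Among them *Gata2* (39 and 77 reads, 0.57 [0.28, 0.85]) was the farthest from 0, with *Eomes* at -0.03 and *Krt8* at 0.07. The 6 primitive endoderm genes (median 0.06) and 6 formative epiblast genes (median -0.11) held no call.

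Of 13 ERK feedback genes, 1 was called lower (*Spry2*, 0.446% over all genes), in cells that were all grown with the MEK inhibitor PD03. An interval lay below 0 in 5 and above it in none (18.9% and 15.6% over all genes), with a median of -0.18. *Dusp6*, an ERK phosphatase, went from 7.41 to 4.63 CPM (-0.58 [-0.79, -0.37]) and the ETS factor gene *Etv5* from 561 to 476 CPM (-0.24). Among 19 immediate early genes, which respond within minutes to many stimuli, 1 was called higher (*Atf3*, 0.229% over all genes). An interval lay above 0 in 12 and below it in 1 (15.6% and 18.9% over all genes), with a median of 0.24. *Dusp1* (0.46), *Klf10* (0.41), *Jun* (0.36) and *Fos* (0.48, 76 and 119 reads) were higher beyond counting error, and *Ccn2* was lower (-0.52). *Egr1* held 8 and 11 reads. Of 12 ATF4 and unfolded protein response genes, 1 was called higher (*Chac1*, 0.229% over all genes). An interval lay above 0 in 8 and below it in 3 (15.6% and 18.9% over all genes), with a median of 0.15. *Ddit3* stood at 0.57, *Trib3* at 0.47 and *Herpud1* at 0.47. The 3 below 0 were its serine and asparagine synthesis genes, each by a small amount. They were *Psat1* (-0.09), *Phgdh* (-0.05) and *Asns* (-0.03, above 0 under total-count scaling).

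In the LIF-STAT3 list of 8, 1 was called lower (*Gbx2*, 0.446% over all genes). An interval lay above 0 in 5 and below it in 2 (15.6% and 18.9% over all genes), with a median of 0.08. The STAT3 target *Socs3* was among those above 0 (89.5 to 102 CPM, 0.19 [0.13, 0.25]). The 13 Wnt targets went both ways, with *Axin2* (0.48 [0.39, 0.57]) and *Sp5* (0.40 [0.25, 0.55]) above 0 and *Sp8* (-0.35) and *Cdx1* (-0.22) below, around a median of -0.03. *Nodal* itself went from 40.7 to 53.6 CPM (0.39 [0.30, 0.47]) while its co-receptor gene *Tdgf1* went from 210 to 174 CPM (-0.26). Housekeeping families held no call, with medians of -0.01 over 80 ribosomal protein genes and their close paralogues (0.02 under total-count scaling), -0.04 over 37 genes of proteasome subunits and assembly factors and -0.06 over 24 mitochondrial genes. The first 2 counts leave out S6 kinase genes, *Rps19bp1* and *Psmc3ip*, which share only the start of the symbol.

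**Figure D3:**
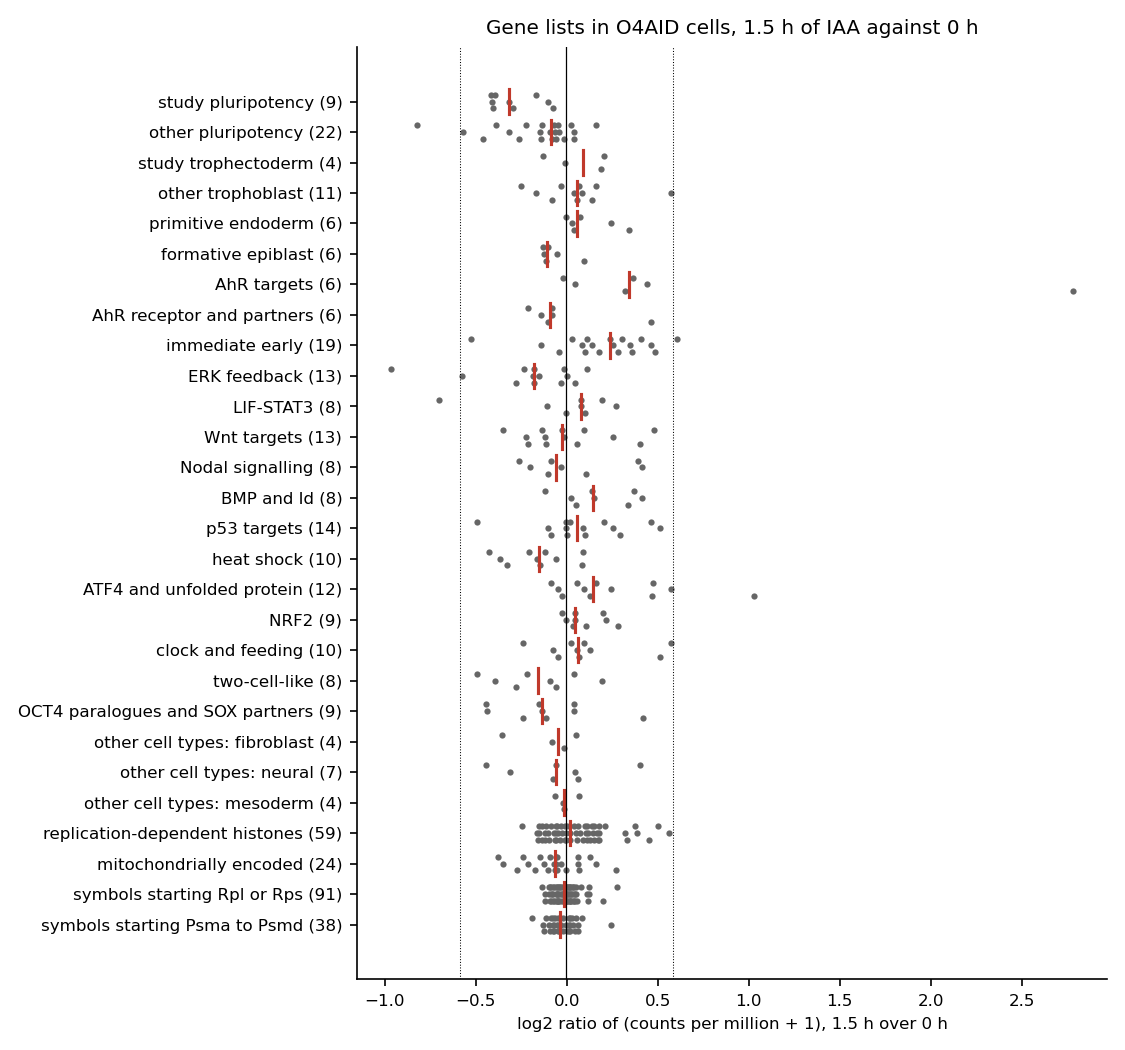
Log2 ratio of (CPM + 1), 1.5 h over 0 h, for each compared member (points) of 28 gene lists, with the list's median in red, the median of all genes as a solid line and 1.5-fold as dotted lines. *Cyp1a1* at 2.78 stands apart, the 9 study pluripotency genes lie left of 0, and the 91 genes with symbols starting Rpl or Rps, of which 11 are S6 kinase genes or *Rps19bp1*, gather around it.

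Calls in other RNA classes were mostly falls of short structural RNAs. Of 52 small nuclear RNA (snRNA) genes compared, 22 were called lower (42.3%) and none higher, with a median of -0.53. Of 1030 pseudogenes, 13 were called lower (1.26%) and none higher. Over all genes compared, 0.446% were called lower and 0.229% higher. The U1 snRNA copy *Gm24830* went from 71.5 to 24.8 CPM (-1.49 [-1.59, -1.40]), *Gm22513* from 97.3 to 38.6 CPM (-1.31) and *Rnu1b6* from 6.64 to 2.33 CPM (-1.20). *Rpph1*, the RNA of RNase P, went from 174 to 71.1 CPM (-1.28), and the ribosomal RNA gene *CT010467.1* from 4642 to 975 CPM (-2.25). U1 RNA pairs with the 5′ splice site, and its gene copies are close to identical. GENCODE M21 (GRCm38) sequences are given to show how little separates the copies to which reads were assigned, at chr3:96328425-96328590 (+ strand) for *Gm24830*, chr12:54696782-54696945 (+ strand) for *Gm22513* and chr11:87422867-87423030 (+ strand) for *Rnu1a1*, and capitals mark the base at which the last pair differ.
Gm24830: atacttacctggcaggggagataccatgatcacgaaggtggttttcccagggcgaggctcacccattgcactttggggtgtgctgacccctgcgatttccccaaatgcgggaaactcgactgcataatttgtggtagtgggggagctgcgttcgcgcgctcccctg
Gm22513: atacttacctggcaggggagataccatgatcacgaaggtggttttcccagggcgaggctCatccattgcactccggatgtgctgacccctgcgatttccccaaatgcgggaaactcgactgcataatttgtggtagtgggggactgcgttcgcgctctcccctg
Rnu1a1: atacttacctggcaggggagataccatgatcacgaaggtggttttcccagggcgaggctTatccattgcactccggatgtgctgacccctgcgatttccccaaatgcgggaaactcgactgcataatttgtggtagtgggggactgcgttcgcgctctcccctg
*Rnu1b6* (chr3:96460024-96460189, - strand) has the same 166 letters as *Gm24830*, and *Gm22513* differs from *Rnu1a1* at 1 of 164, so values of single copies are uncertain. The 22 called snRNA genes include such copies, so they are not 22 separate observations.

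The short RNAs set the 1.5 h library apart from all 4 others. The snRNA share of counted reads was 0.0650% at 0 h, 0.0310% at 1.5 h, and 0.0585%, 0.0547% and 0.0748% at 6, 10 and 24 h, and all 22 called snRNA genes were lowest at 1.5 h. Shares of ribozyme, scaRNA and misc_RNA genes were also lowest at 1.5 h. The rRNA share went another way, from 0.447% at 0 h to 0.0962% at 1.5 h and 0.0142% to 0.0979% later, so there the 0 h library was the high one. How far recovery of short RNA or ribosomal RNA depletion in single libraries entered these values was not tested. Outside protein-coding genes only 3 genes rose, the long non-coding RNAs *Gm13571* (0.60, annotated as antisense and uncertain because the strand setting of the counts is not known), *Gm42900* (0.60) and *Gm42611* (22 reads at 0 h). *Gm1943*, *Mir22hg* and *1810059H22Rik* lay between 0.51 and 0.54, under the limit.

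**Figure D4:**
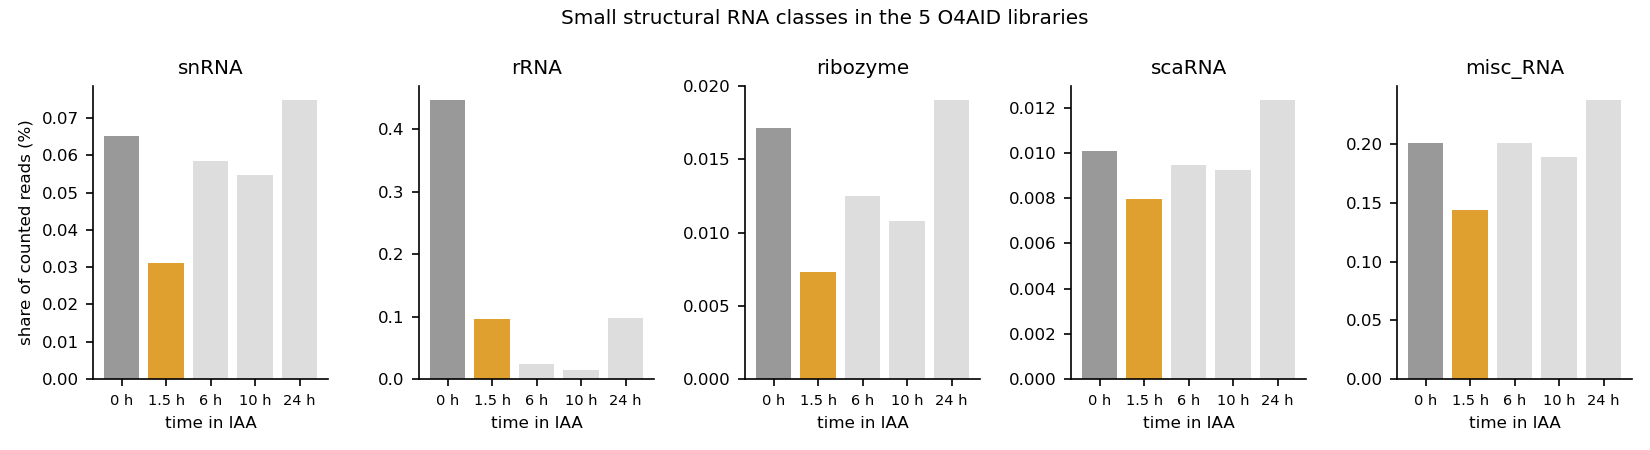
Share of counted reads (%) of 5 RNA classes in the 5 O4AID libraries, with 1 library a bar. For snRNA the 1.5 h library is lowest at 0.0310%, whereas for rRNA the 0 h library is highest at 0.447%.

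The called genes were then read in the CreER line, which lost *Pou5f1* by another route (330 and 326 CPM at 0 h, 115 and 127 CPM at 36 h), with no IAA and a separate set of 0 h libraries. A gene was set to one side there when both 36 h replicates lay above, or both below, both 0 h replicates. Of the 33 called-higher genes with CreER counts, 24 were higher at 36 h and 5 lower (33.7% and 33.1% of all 15729 genes). Of the 19 called-lower protein-coding genes, 14 had CreER counts, of which 9 were lower and 2 higher. Over all 69 called-lower genes with CreER counts, most of them short or non-coding, 20 were lower and 18 higher. *Zfp296* stood at 43.4 and 36.4 CPM at 0 h and at 23.6 and 24.1 CPM at 36 h, *Gbx2* at 14.4 and 15.3 against 5.48 and 5.17 CPM, and *Foxd3* at 14.1 and 12.8 against 4.04 and 4.16 CPM. *Spry2* stood at 91.0 and 92.4 against 70.9 and 71.3 CPM, and *Klf2* at 59.9 and 58.6 against 47.3 and 47.0 CPM. The 2 that were higher at 36 h were *Cldn7* and *Acat3*. *Cldn7* stood at 19.2 and 18.9 against 27.0 and 28.2 CPM, and *Acat3* at 14.8 and 14.5 against 15.1 and 15.1 CPM. Among the rises, *Msx2* stood at 3.97 and 4.18 against 11.2 and 11.5 CPM, and *Amotl2* at 119 and 110 against 164 and 174 CPM. *Cyp1a1* was at 2.93 and 2.21 CPM at 0 h and 3.64 and 3.62 CPM at 36 h. *Prr15* (0.120 to 0.204 CPM) overlapped, and *Chac1* was lower at 36 h, at 5.28 and 5.61 against 7.42 and 5.81 CPM. These libraries differ from O4AID in strain, route and time, which cannot be told apart.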

How the data were processed

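Total RNA of mouse ESCs was depleted of ribosomal RNA and sequenced as directional paired-end libraries. The authors trimmed the reads (Trim Galore 0.1.4), aligned them to GRCm38/mm10 (TopHat2 2.1.0) and counted them per gene with featureCounts 1.5.1. The deposited files hold raw counts per gene. Strand and multimapping settings are not given in the sources used here. The deposited TMM-normalised table was not used.

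Spike-in entries (92, with 0 reads) were removed, and 48349 of 48709 genes were matched to GENCODE M21, the others holding 0.0219% and 0.0216% of reads. TMM factors came from the 5 O4AID libraries (edgeR 4.0.16, R 4.3.3), and ratios, with 95% Wilson limits of both shares combined, were computed in Python 3.11.15 (numpy 2.4.6, pandas 2.3.3) and checked on simulated data. Reads carry no molecular identifiers, so intervals cover counting error only. The study's NOISeq-sim calls simulate replicates and were replaced by the 1.5-fold rule. Genes named are list members and the 15 largest rises and falls among protein-coding genes, and 5 each among others, with a mean of at least 50 counts and an interval excluding 0. Other called genes were named after their values were seen. Genes and lists were chosen with earlier results of these data known. Alternatives were other scalings, pseudocounts, filters and folds. The comparison with CreER at 36 h was added after seeing the data. A member of the pluripotency list is not reported here.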

Additional observations from a re-analysis of the deposited data

How the results depend on the processing

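The counts of calls depended on how low genes were weighted. With a pseudocount of 0.1 CPM in place of 1, 408 genes were called higher and 492 lower, and with 5 CPM 6 and 23. A 2-fold limit left 4 higher and 11 lower, and the counting interval alone gave 2729 and 3301. RLE scaling gave 41 and 76, TMM factors from both libraries alone 43 and 66, a mean of at least 50 counts 34 and 69, and no filter beyond 1 count 40 and 78 of 27596 genes. Of the 118 calls, 40 higher and 57 lower were shared with total-count scaling. None of the 40 named largest rises and falls, nor *Pou5f1*, turned direction under the scalings and pseudocounts. Of all 277 named genes compared, 12 changed sign under total-count scaling, each within 0.03 of 0, and of the 177 whose interval excluded 0 these were *Asns* and *mt-Rnr2*. The median of the mesoderm markers turned positive at a mean of at least 50 counts (0.002), as did that of the 91 genes with Rpl or Rps symbols under total-count scaling (0.0207).

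Leaving out each CreER library in turn, 25 to 26 of the 33 called-higher genes were above 0 h at 36 h (41.2% to 42.6% of all genes), and 9 to 11 of the 14 called-lower protein-coding genes were below it (40.7% to 42.5%). Total-count scaling gave 22 (26.2%) and 11 (42.3%). No paired analysis was possible because O4AID has 1 library at each time, for the same reason that no O4AID library could be left out. Without replicates the spread between cultures is unknown, and for genes under about 3 CPM the counting interval alone had a median half-width of 0.27 to 0.29 on the log2 scale.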

Other observations

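No gene of the heat shock, p53, NRF2 or clock lists was called at 1.5 h. Over all genes compared, an interval lay above 0 in 15.6% and below 0 in 18.9%, against which the counts of these lists are given. Those shares are not matched for read depth, and abundant genes have narrower intervals. Of 10 heat shock genes, 7 had an interval below 0 and 2 above it, with *Hspa1a* at -0.43 (181 and 117 reads) and *Hsph1*, a co-chaperone of HSP70, at -0.37 (106 and 82.1 CPM). Of 14 p53 targets, 7 had an interval above 0, with the stress sensor gene *Sesn2* at 0.51, *Phlda3* at 0.46 and the CDK inhibitor gene *Cdkn1a* at 0.29 (191 and 234 CPM), while the death receptor gene *Fas* held 31 and 8 reads (-0.49). Of 9 NRF2 targets, 4 had an interval above 0 and the median was 0.05. The circadian genes *Ciart* (0.58) and *Per2* (0.51) were the farthest from 0 among 10 clock genes, whose median was 0.06.

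Among 8 BMP and Id genes, 4 had an interval above 0 and none below (15.6% and 18.9% over all genes), with *Smad7*, an inhibitory SMAD, at 101 and 135 CPM (0.41) and *Id4* at 3.74 and 5.13 CPM (0.37). The 9 POU and SOX genes had a median of -0.14 and 5 intervals below 0 (18.9% over all genes), with *Sox1* (8.45 and 5.96 CPM) and *Sox11* (75 and 41 reads) both at -0.44 and *Pou6f1* at 0.42. The 8 two-cell-like genes had a median of -0.16 with 4 intervals below 0 (18.9% over all genes), and *Zscan4d*, one of a family of near-identical copies, stood at 11.1 and 8.98 CPM. The 59 replication-dependent histone genes had a median of 0.02, with 24 intervals above 0 and 16 below (15.6% and 18.9% over all genes).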
